A study of Homo sapiens with 2 samples.

Results

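The genes described here are 8 genes of the non-muscle actin and myosin machinery: the myosin heavy chain MYH9, the myosin light chains MYL6, MYL12A and MYL12B, the tropomyosins TPM3 and TPM4, the calponin CNN2 and the capping protein subunit CAPZB. They were taken by symbol from a table of transcript models; the rule that picks them uses no measured value, but the list was drawn up with earlier results of these data known. They are 8 of the 16645 annotated genes with a read and hold 443 of the 237608 models in the table, 325 of them read in replicate 1 and 252 in replicate 2. The study read native RNA of GM12878, an Epstein-Barr virus transformed human B-lymphoblastoid cell line, by Oxford Nanopore direct RNA sequencing. There is 1 group of 2 libraries, replicates 1 and 2, with no treatment or second line in the labels; both were made from depleted RNA with the same kit. The labels do not say whether the libraries came from separate cultures, so every p-value below compares the reads of these 2 libraries and covers counting error only.

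Non-muscle myosin II is the motor that pulls on actin filaments outside muscle. It is built from a pair of heavy chains, which carry the motor and the tail, and pairs of essential and regulatory light chains, which stiffen the neck and let phosphorylation switch the motor on. Tropomyosins lie along the actin filament and govern which proteins bind it, calponins bind actin and tropomyosin, and capping protein closes the fast-growing end of the filament. In B cells this machinery works in cell shape, migration and the contact with antigen-bearing cells. The families are also textbook cases of alternative exons, with muscle and non-muscle forms made from the same gene, so the structure of each transcript matters as much as its level.

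The libraries held 1360368 and 1510998 assigned reads, so that 1 read was worth 0.735 and 0.662 CPM (the reads of a gene scaled to a common library total). In direct RNA sequencing 1 read is 1 RNA strand entered at its 3′ end, and CPM is therefore not divided by transcript length. The libraries differed as a whole in the models their reads were assigned to: 22.8% of reads in replicate 1 and 29.2% in replicate 2 were in models of a single exon, and 55.9% and 45.9% to known models, those that match an annotated transcript. B cell markers were read in both libraries, among them MS4A1 with 360 and 416 reads, CD79A with 936 and 1026 and CD74 with 10565 and 12221. The 4 T cell markers summed to 8 and 26 reads with CD3D and CD3G at 0, the 4 myeloid markers to 10 and 26 with LYZ at 0, and the 4 muscle markers DES, MYH11, MYH7 and ACTA1 were at 0 in both libraries.

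Together the 8 genes took 5026 reads of replicate 1 and 5133 of replicate 2, which is 3695 and 3397 CPM, or 0.369% and 0.340% of the library. MYL6 had the highest level of the 8, with 984 and 986 reads (688 ± 50.1 CPM, SD, n = 2), and ranked 189 among all genes by mean CPM. TPM4 followed with 807 and 742 reads (542 ± 72.2 CPM) and MYL12A with 616 and 799 (491 ± 53.7 CPM). TPM3 had 669 and 627 reads (453 ± 54.3 CPM), and MYH9 had 575 and 517 (382 ± 56.9 CPM). The lowest levels were those of CAPZB at 460 and 503 reads (336 ± 3.71 CPM), MYL12B at 447 and 497 (329 ± 0.236 CPM) and CNN2 at 468 and 462 (325 ± 27.1 CPM). In this order of mean CPM the ranges of the libraries overlapped between TPM4 and MYL12A, MYL12A and TPM3, TPM3 and MYH9, and MYL12B and CNN2. MYL6 lay above TPM4, MYH9 above CAPZB and CAPZB above MYL12B in every library. The last lead was a few CPM, as was that of MYH9 over CAPZB in replicate 2 (342 against 333 CPM). These orders were not tested against counting error.

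**Figure D1:**
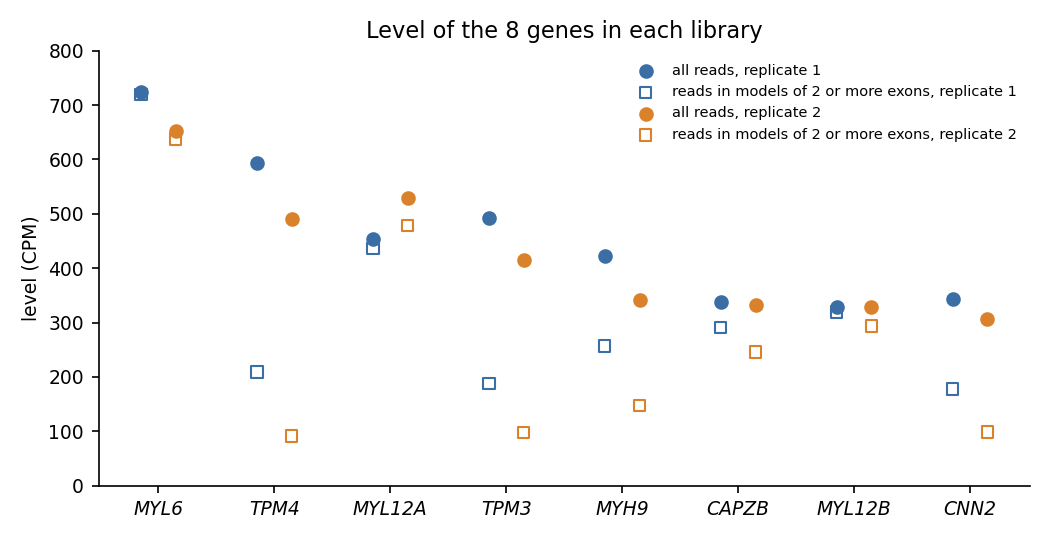
Level of each gene in CPM, by library. Filled circles show all reads, and open squares show only the reads in models of more than 1 exon. By all reads MYL6 is highest in both libraries, and the 3 genes with the lowest means lie within 306 to 344 CPM.

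Between the libraries, 3 of the 8 genes passed the gene test, a two-sided exact binomial test of the reads of replicate 2 against replicate 1 with Benjamini-Hochberg adjustment over 10634 genes of at least 10 reads. All 3 were lower in replicate 2. TPM4 fell from 593 to 491 CPM (log2 ratio -0.27, exact binomial adjusted p = 0.00700), MYH9 from 423 to 342 CPM (-0.30, adjusted p = 0.0143) and TPM3 from 492 to 415 CPM (-0.24, adjusted p = 0.0481). Of the genes tested in the whole series 5.05% were called, 2.33% as lower. Among the 423 genes with at least 400 reads in each library, a depth that each of the 8 genes reached, 37.1% were called, 18.9% as lower. At that depth 3 of 8 is near the background. MYL12A, at 453 and 529 CPM, was not called (log2 ratio 0.22, 95% interval 0.07 to 0.38, adjusted p = 0.0675), and MYL12B stood at 329 CPM in both libraries (0.00, interval -0.18 to 0.19). MYL6 at 723 and 653 CPM, CNN2 at 344 and 306 and CAPZB at 338 and 333 were not called either. The median log2 ratio of the 8 genes was -0.16, beside 0.01 over all tested genes. With DESeq2 size factors in place of the library totals the call of TPM3 was lost (adjusted p = 0.0623).

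The 8 genes differed far more in the structure of their reads than in their level. Reads assigned to single-exon models made up 0.508% and 2.33% of the reads of MYL6, 3.73% and 9.51% of those of MYL12A and 2.68% and 10.7% of those of MYL12B. CAPZB lay between, at 13.9% and 26.0%. In MYH9 the share was 39.1% and 57.1%, in CNN2 48.3% and 67.7%, in TPM3 61.9% and 76.6% and in TPM4 64.8% and 81.4%. The light chains were thus read almost wholly as spliced RNA, and the heavy chain, the calponin and both tropomyosins mostly in single-exon models in replicate 2. All 8 genes had a higher single-exon share in replicate 2 by Fisher's exact test (adjusted p from 2.24e-11 in TPM4 to 0.00737 in MYL6, over 6159 genes). This test was added after the data had been seen. Of all tested genes 20.7% were called, 20.6% as higher, and 58.7% of the 409 with at least 400 reads in each library. The rise goes with the higher single-exon share of replicate 2 as a whole, and its part in the result was not tested.

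**Figure D2:**
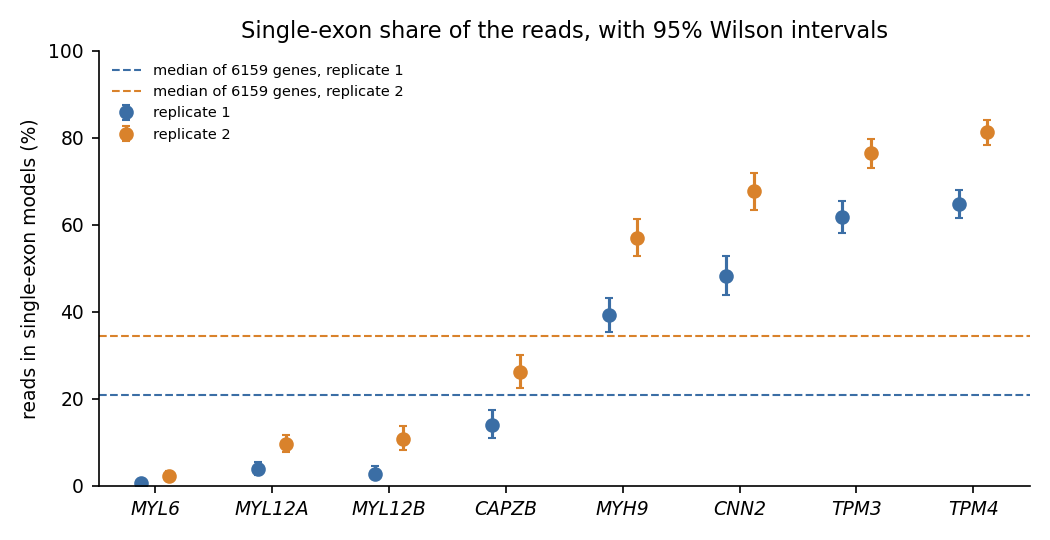
Share of each gene's reads in single-exon models, in percent, by library, with Wilson 95% intervals. The shares are higher in replicate 2 for all 8 genes and run from 0.508% in MYL6 to 81.4% in TPM4.

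The annotated last exon of the main spliced model was longer in the 4 genes with the highest single-exon shares than in the other genes. It measured 88 bases in CAPZB, 188 in MYL6, 491 in MYL12A and 520 in MYL12B, against 1444 in CNN2, 1509 in MYH9, 1742 in TPM4 and 2414 in TPM3. Across the 8 genes Spearman's rho between this length and the single-exon share was 0.79 in replicate 1 and 0.81 in replicate 2, and across 5675 genes of the table it was 0.61 and 0.62, given as a description since genes share a library and are not independent. The 1336 genes with last exons of 2000 bases or more had median single-exon shares of 51.3% and 67.6%, and the 1724 genes with last exons under 500 bases had 3.35% and 7.18%. CAPZB, measured on its main model CAPZB-201, ran against this order. That model has the shortest last exon of the 8, and the CAPZB shares of 13.9% and 26.0% were above those of the 3 light chains. They were also above the medians of the genes with last exons under 500 bases. The length depends on the model, however. CAPZB-204, a known model with 36 and 30 reads, has a last exon of 839 bases that contains the 88. Genes with last exons of 500 to under 1000 bases had medians of 14.3% and 27.0%. Which end the CAPZB reads carry was not tested.

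How the table names those single-exon reads differed from gene to gene. In MYL6, MYL12A, MYL12B and MYH9 nearly all were incomplete splice matches (ISM), models with only part of an annotated transcript's exons. In TPM3 and CAPZB they were all genomic, a class for reads that overlap a gene without matching its splicing. The remaining classes, NIC (annotated splice sites joined in an unannotated way) and NNC (an unannotated splice site), are spliced. In CNN2 all but 1 of them were known, and in TPM4 most were known and the rest genomic. So the share of reads in known models is not one quantity across these genes: it was 85.3% and 85.5% in CNN2, 66.2% and 60.4% in TPM4, 15.8% and 8.13% in TPM3, and 0.348% and 0% in MYH9, genes that all had many single-exon reads. By Fisher's exact test with adjustment over 6340 genes the known share fell in replicate 2 in 5 of the 8: MYL12A (83.4% to 65.6%, adjusted p = 1.10e-12), MYL12B (81.9% to 64.6%, 6.37e-08), CAPZB (60.9% to 41.4%, 4.81e-08), TPM3 (0.000222) and MYL6 (53.2% to 45.6%, 0.00624). The background was 27.1% of all tested genes (26.9% as lower) and 73.3% of those with at least 400 reads in each library (72.3% as lower), so 5 of 8 is near it. TPM4 (adjusted p = 0.0679), CNN2 (1) and MYH9 (0.738) were not called. Among reads in models of 2 or more exons alone, the known share of CNN2 was 71.5% in replicate 1 and 55.7% in replicate 2, and that of TPM4 30.6% and 18.1%.

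**Figure D3:**
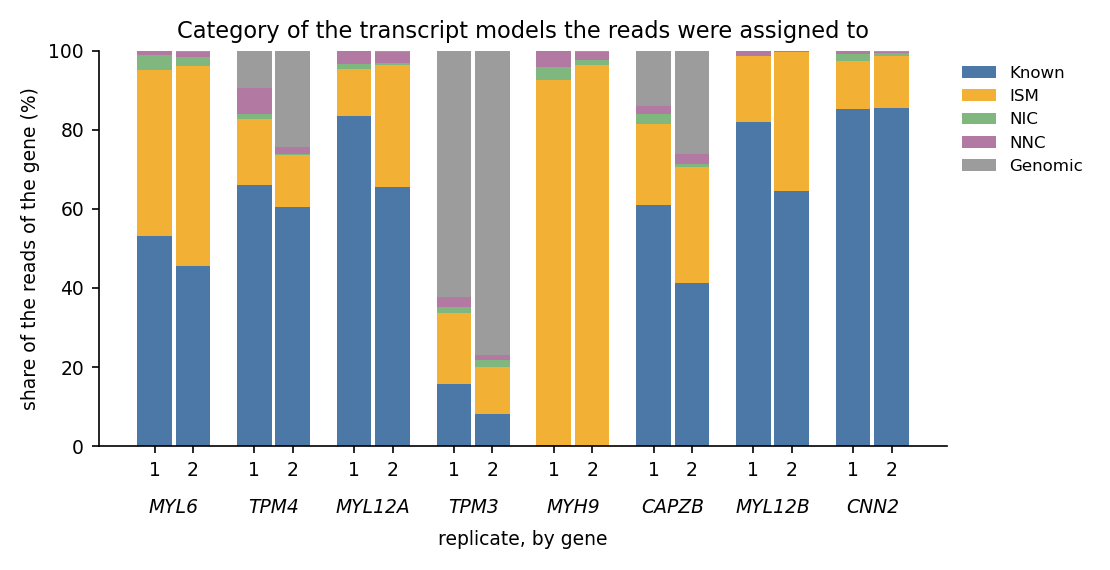
Share of each gene's reads, in percent, in known, ISM, NIC, NNC and genomic models, with 1 stacked bar per library. MYH9 is almost all ISM, TPM3 mostly genomic, and CNN2 mostly known.

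A count of the reads in models of 2 or more exons alone was added after the data had been seen, and 4 of the 8 genes passed the gene test with it, all lower in replicate 2. MYH9 fell from 350 to 222 such reads (log2 ratio -0.81, exact binomial adjusted p = 4.53e-09), TPM3 from 255 to 147 (-0.94, adjusted p = 1.28e-08), TPM4 from 284 to 138 (-1.19, adjusted p = 6.24e-14) and CNN2 from 242 to 149 (-0.85, adjusted p = 8.92e-07), each scaled to all reads. MYL6, with 979 and 963, MYL12A, with 593 and 723, MYL12B, with 435 and 444, and CAPZB, with 396 and 372, were not called. The 4 called genes are those with the last exons over 1000 bases, beside 11.7% of 7772 genes called in the whole series, 10.5% as lower, and a median log2 ratio over all of them of -0.27. Of the 382 tested genes with at least 400 reads in each library over all models 45.5% were called, 35.9% as lower, so 4 of 8 is near the background at this depth. Scaled to spliced reads only, where the median was -0.15, the 4 kept their direction and their calls and MYL12A was called higher (0.26, exact binomial adjusted p = 0.0206), with 8.48% of genes called, 2.56% as higher and 5.92% as lower. At the greater depth 45.3% were called, 23.8% as higher and 21.5% as lower.

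MYH9 encodes the heavy chain of non-muscle myosin IIA. The gene lies on the minus strand at chr22:36281277-36388067 (GRCh38), and its main annotated transcript, MYH9-201, has 41 exons and 7554 bases, of which 5880 code for protein. A read of the whole transcript was close to absent: 1 read of replicate 1 and 0 of replicate 2 were assigned to MYH9-201, where 0 of 517 reads allows a share of up to 0.580%. In all, 3 and 1 reads had 41 or more exons. ISM models held 531 of 575 reads (92.3%) and 498 of 517 (96.3%). The most read was a single-exon model of 1509 bases, the length of the annotated last exon, with 225 and 295 reads. Reads of at least 5 exons were 46.8% and 26.9%, of at least 10 exons 19.7% and 7.74%, and of at least 20 exons 7.13% and 1.35%. Replicate 1 lay above replicate 2 at each of these marks. The MYH9 reads were spread over 149 models, of which 22 were in both libraries and 117 had 1 read in all.

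**Figure D4:**
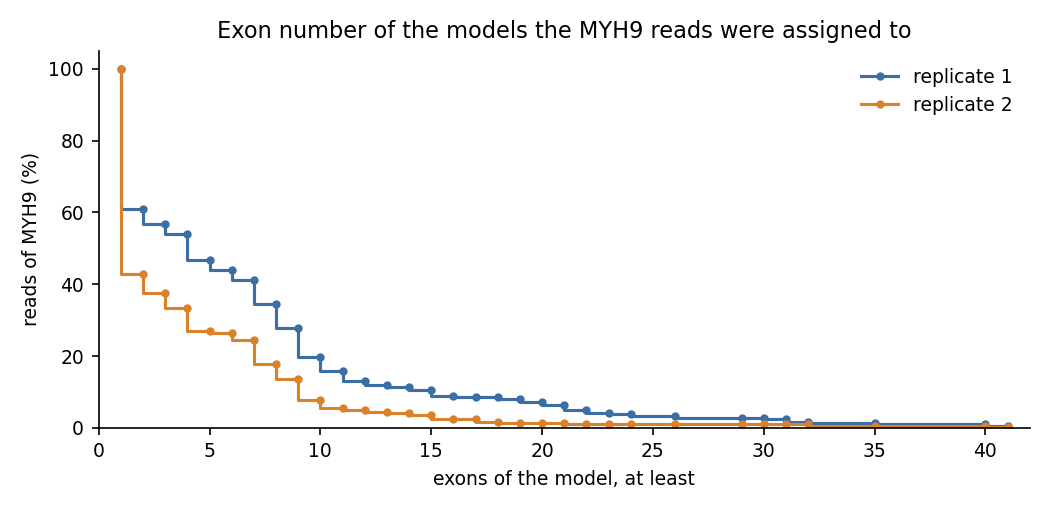
Share of the MYH9 reads, in percent, assigned to models with at least a given number of exons, by library, from 1 exon to the 41 of the annotated transcript. Replicate 2 lies below replicate 1 from 2 exons on, at 42.9% against 60.9%.

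MYL6 encodes the essential light chain, which wraps the neck of the myosin. It lies at chr12:56158161-56163496 (plus strand, GRCh38) and overlaps 1487 bases of MYL6B, its neighbour on the same strand. Its main model MYL6-207 has 6 exons and 655 bases and held 496 of 984 reads in replicate 1 (50.4%) and 421 of 986 in replicate 2 (42.7%). Most of the other reads were ISM of the suffix kind, which keep the 3′ end and lack exons at the 5′ end: 406 of 414 ISM reads and 475 of 497. The most read of these had 5 exons, with 180 and 148 reads. MYL6 has an alternative exon of 45 bases (chr12:56160626-56160670) whose use replaces the last codons of the protein. Models without it end the coding sequence in the last exon, at chr12:56161387-56161412, and models with it end inside it, at chr12:56160626-56160651. The pair below shows the last 20 bases of the shared exon in lower case and the coding bases that follow in capitals.
MYL6-207, exon left out: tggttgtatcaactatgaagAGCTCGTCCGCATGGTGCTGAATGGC
MYL6-202, exon kept: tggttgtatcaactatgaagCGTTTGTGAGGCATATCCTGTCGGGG
The exon was in 11 of 522 known-model reads of replicate 1 (2.11%, Wilson 95% interval 1.18 to 3.73) and in 8 of 445 of replicate 2 (1.80%, 0.914 to 3.51), all from the model MYL6-218. The intervals of the libraries overlap, and the form that leaves the exon out made up the rest in both.

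MYL12A and MYL12B encode regulatory light chains, the subunits whose phosphorylation activates the motor. They are neighbours on the plus strand of chromosome 18, at chr18:3247481-3256236 and chr18:3261479-3278431 (GRCh38), with 5242 bases between them. Their main models, MYL12A-201 and MYL12B-201, have 4 exons each and are near copies in the coding sequence, with 491 of 516 aligned columns the same (95.2%), while the last exon after the last codon matches in 54.2%. The first coding exons are printed to show how few bases separate the genes there, at chr18:3253248-3253428 for MYL12A and chr18:3272899-3273082 for MYL12B, with capitals where they differ.
MYL12A first coding exon: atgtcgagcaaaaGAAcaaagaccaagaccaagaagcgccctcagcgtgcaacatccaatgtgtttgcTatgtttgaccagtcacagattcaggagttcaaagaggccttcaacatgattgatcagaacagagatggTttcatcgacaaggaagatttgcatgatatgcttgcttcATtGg
MYL12B first coding exon: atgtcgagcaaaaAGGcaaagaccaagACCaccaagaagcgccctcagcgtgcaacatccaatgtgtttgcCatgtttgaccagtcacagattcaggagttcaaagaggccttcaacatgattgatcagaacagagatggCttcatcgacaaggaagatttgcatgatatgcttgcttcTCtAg
Over 184 aligned columns these exons differ in 11, of which 3 are a gap. How the authors' alignment told the pair apart was not tested. MYL12A-201 held 500 of 616 reads (81.2%) and 513 of 799 (64.2%), and MYL12B-201 held 364 of 447 (81.4%) and 320 of 497 (64.4%), so the 2 genes had nearly the same share in each library and the same lower share in replicate 2. Among known-model reads alone MYL12A-201 stood at 97.3% and 97.9%. The reads gained in replicate 2 were ISM: 73 and 246 in MYL12A, 75 and 175 in MYL12B. In both genes the most read ISM had 3 of the 4 exons, with 35 and 112 reads in MYL12A and 40 and 73 in MYL12B.

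TPM3 encodes a tropomyosin and lies on the minus strand at chr1:154155304-154194648 (GRCh38). Most of its reads were in 1 genomic single-exon model of 1805 bases, with 413 of 669 reads in replicate 1 and 477 of 627 in replicate 2. This model is shorter than the annotated last exon of 2414 bases, and the table gives no coordinates for it, so its place in the gene was not analysed here. The main spliced model, TPM3-212, has 8 exons, 3131 bases and 248 codons, and held 92 reads (13.8%) and 42 reads (6.70%). It is a short, non-muscle type of tropomyosin that starts from an internal first exon. Within the known models its share was 86.8% and 82.4%, and the test of model use did not call it (adjusted p = 0.748 by Fisher's exact test). Tropomyosin genes carry a pair of mutually exclusive sixth exons, 6a and 6b, in the numbering used for the family. In TPM3 they lie at chr1:154172029-154172104 and chr1:154171413-154171488. They are shown because the known-model reads held the first and none held the second. Capitals mark where they differ when compared position by position, without gaps.
TPM3 exon 6a: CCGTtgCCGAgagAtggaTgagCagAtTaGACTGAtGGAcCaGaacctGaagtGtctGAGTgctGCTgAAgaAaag
TPM3 exon 6b: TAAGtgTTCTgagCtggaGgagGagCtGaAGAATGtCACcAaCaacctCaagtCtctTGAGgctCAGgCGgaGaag
Exon 6a was a separate exon in 97 known-model reads of replicate 1 and 45 of replicate 2. The other known-model reads, 9 and 6, were in TPM3-213, which the annotation types as a retained intron. All 3 junctions of TPM3-213 are in TPM3-212, and its interval, chr1:154156357-154172677, spans exon 6a. Exon 6b was in 0 of 106 and 0 of 51 known-model reads, which allows a share of up to 2.83% and 5.88% of such reads. Reads in other models were not examined for either exon. Among them were 119 and 75 ISM reads, 11 and 10 NIC reads and 17 and 9 NNC reads. TPM3-210, the annotated long form of 285 codons, was at 0 reads in both libraries. TPM3-211, which ends in another last exon, had 3 reads in each.

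TPM4, the other tropomyosin, lies at chr19:16067021-16103005 (plus strand, GRCh38). Its coding sequence in TPM4-201 matches that of TPM3-212 in 73.9% of aligned columns and has the same 248 codons. TPM4-201, with 8 exons, held 87 of 807 reads in replicate 1 (10.8%) and 25 of 742 in replicate 2 (3.37%), and the long form TPM4-202 of 284 codons was at 0 in both. The most read model was TPM4-213, a single exon of 2672 bases that the annotation types as a retained intron, with 447 reads (55.4%) and 423 (57.0%). Its annotated interval, chr19:16099667-16102338, overlaps 1075 bases (61.7%) of the last exon of TPM4-201 and runs 1597 bases into the intron before it. A further 69 and 177 reads were in a genomic single-exon model of 633 bases. An NNC model of 8 exons, the exon number of TPM4-201, had 45 and 10 reads.

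CNN2 encodes calponin 2, the calponin of non-muscle and immune cells, at chr19:1026581-1039068 (plus strand, GRCh38). Like TPM4, it was led by an annotated single-exon model typed as a retained intron: CNN2-206, of 2266 bases at chr19:1036799-1039064, held 226 of 468 reads (48.3%) and 312 of 462 (67.5%). This interval covers 1440 of the 1444 bases (99.7%) of the last exon of the spliced model CNN2-201 and 826 of the 1062 bases of the intron before it. CNN2-201, with 7 exons, held 156 reads (33.3%) and 72 (15.6%). The sequences below are the edge of the last exon of CNN2, 30 bases on each side. They are printed to show what a read must hold to tell its models apart: capitals mark the end of the preceding exon in the spliced model and the end of the intron in the single-exon model, and the lower-case bases are the same.
CNN2-201, spliced: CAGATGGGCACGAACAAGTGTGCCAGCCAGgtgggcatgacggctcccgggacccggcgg
CNN2-206, unspliced: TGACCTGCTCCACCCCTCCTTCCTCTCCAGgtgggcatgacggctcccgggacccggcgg
A read that stops inside the last exon holds neither run of capitals. The table gives no read coordinates, so how many reads of TPM4-213 and CNN2-206 reach into the intron was not analysed here.

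**Figure D5:**
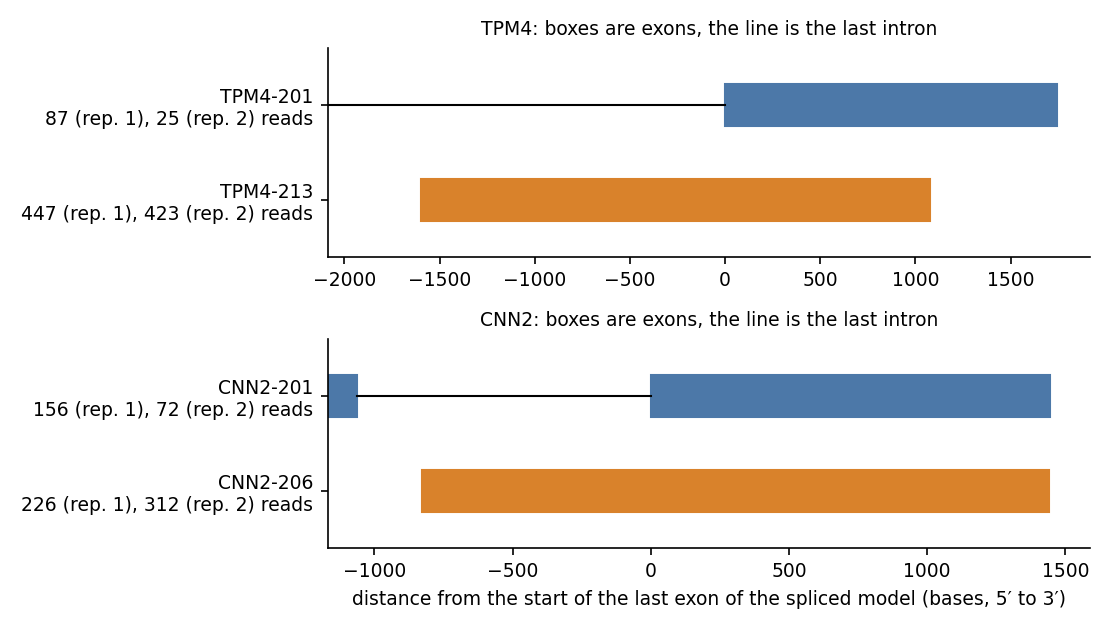
Annotated last exon of TPM4-201 and CNN2-201 and the intron before it, with the single-exon models TPM4-213 and CNN2-206. The axis is distance in bases from the start of the last exon, with a separate scale for each gene. The TPM4 panel shows only the end of its intron of 7510 bases. TPM4-213 reaches 1597 bases and CNN2-206 826 bases upstream of that start.

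Within the known models, the balance between the spliced and the single-exon model differed between the libraries in TPM4 and CNN2. Fisher's exact test of each known model against the other known reads of its gene was run on 3089 models, and 19.1% were called, 10.7% as higher and 8.35% as lower. Of the 15 tested models, in 6 of the genes, 4 were called, all in TPM4 and CNN2. In each of these 2 genes the called models moved in opposite directions, so their calls are not independent. At 4 of 15 the calls are near the background, whose share at greater depth was not computed. CNN2-206 rose from 56.6% to 79.0% of the known reads (adjusted p = 5.86e-10 by Fisher's exact test) and CNN2-201 fell from 39.1% to 18.2% (2.76e-09). TPM4-213 rose from 83.7% to 94.4% and TPM4-201 fell from 16.3% to 5.58% (2.05e-06 for each, since they are the only known models of TPM4 with a read). Such a model is rare in the table: of 2189 genes with at least 20 known reads in each library and a spliced known model, 23 (1.05%) had a single-exon retained-intron model as their most read known model, and TPM4 and CNN2 are 2 of them. Among its spliced known reads CNN2 mostly kept exon 5, of 117 bases at chr19:1036130-1036246.
CNN2 exon 5: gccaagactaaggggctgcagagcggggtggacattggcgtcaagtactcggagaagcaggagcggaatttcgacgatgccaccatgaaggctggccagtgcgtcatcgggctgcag
It was in 166 of 172 informative reads of replicate 1 (96.5%) and 78 of 83 of replicate 2 (94.0%), and CNN2-202, which skips it, had 6 and 5 reads.

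CAPZB encodes the beta subunit of capping protein and lies on the minus strand at chr1:19338776-19485539 (GRCh38). Its main model CAPZB-201, of 9 exons, held 240 of 460 reads (52.2%) and 174 of 503 (34.6%), and CAPZB-204, of 8 exons, held 36 and 30. All 7 junctions of CAPZB-204 are also in CAPZB-201, which has a further first exon. Among the known reads CAPZB-201 took 85.7% and 83.7%, with no call (adjusted p = 0.777 by Fisher's exact test). A single-exon genomic model of 584 bases had 63 and 131 reads. The gene makes a muscle form (beta 1) and a form found in most cells (beta 2) that differ in the end of the protein. The beta 1 form CAPZB-203, of 277 codons, holds a further exon of 113 bases at chr1:19342752-19342864, and CAPZB-201, of 272 codons, goes straight to the last exon. The coding parts of both are printed, at chr1:19342765-19342864 and chr1:19339533-19339617, read on the minus strand and in lower case throughout.
CAPZB-203 alternative exon: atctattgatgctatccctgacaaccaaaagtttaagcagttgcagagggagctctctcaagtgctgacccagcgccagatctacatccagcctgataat
CAPZB-201 last exon: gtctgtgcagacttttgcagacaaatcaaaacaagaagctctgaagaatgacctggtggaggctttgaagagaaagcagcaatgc
The alternative exon was in 0 of 276 known-model reads of replicate 1 and 0 of 204 of replicate 2. This allows a share of up to 1.09% and 1.47% of such reads, and reads in other models were not examined for it. The known-model reads that span this place thus all had the exon order of the beta 2 form.

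Most paralogs of these genes had few reads. The following were picked after their values were seen. The heavy chains MYH10 and MYH14 had 6 and 2 reads and 0 and 0, against 575 and 517 of MYH9. TPM1 had 1 and 0 reads and TPM2 1 and 7, against 669 and 627 of TPM3 and 807 and 742 of TPM4. The calponins CNN1, with 0 and 1 reads, and CNN3, with 17 and 23, stood below CNN2, and the regulatory light chain MYL9 had 7 and 3 reads. MYL6B, the other essential light chain, had 116 and 140. Of 28 annotated pseudogenes named after these 8 genes 5 had a read, 14 and 5 reads in all.

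Of 19 other non-muscle actomyosin genes 13 could be tested: CAPG, which caps actin filaments, rose from 77 to 150 reads (log2 ratio 0.81, exact binomial adjusted p = 0.00210) and CAPZA1, the alpha partner of CAPZB, fell from 334 to 274 (-0.44, adjusted p = 0.00732), with a median log2 ratio of 0.30 over the 13. CAPZB itself did not pass the test, and the difference between the 2 subunits was not tested. Of 16 regulators of myosin II, 13 were tested and none was called by the exact binomial test, at an unadjusted p under 0.05 none either; RHOA, the GTPase that activates the pathway, had 626 and 670 CPM, and the kinase MYLK was at 0 in both libraries. Of 17 genes of other myosin classes 10 were tested and MYO1F, a class I myosin of blood cells, rose from 26 to 73 reads (1.32, exact binomial adjusted p = 0.00104), while MYO1G, another class I myosin of blood cells, had 257 and 283 CPM. Of 25 striated and smooth muscle genes 21 were at 0 in both libraries, and ACTA2, smooth muscle actin, had 40 and 54 reads. These counts stand beside the share of all tested genes called as higher, 2.72%, and as lower, 2.33%.

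The models of these genes were as sparse as those of the table at large. Of the 443 models 134 (30.2%) were read in both libraries, beside 29.6% over the whole table, and 61.9% had a single read, beside 61.0%. Known models of these genes numbered 34, of 117 annotated, and 16 had at least 10 reads. NIC models took 103 and 54 reads over the 8 genes, and NNC models 143 and 83. ISM reads kept the 3′ end in most cases: the suffix kind made up 76.2% and 72.6% of them, beside 68.3% and 68.0% over the whole table. MYH9 had the lowest suffix share of the 8, at 46.7% and 38.0%; its single-exon ISM model has no suffix or prefix kind in the table.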

How the data were processed

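RNA of 2 GM12878 libraries was measured. The authors deposited raw read counts per transcript model and library, with no normalization, and as other properties the exon number and length of each model. The table's name shows that TALON made the models; minimap2 and hg38 are named per the submitters' processing notes, while versions, annotation release and filters are not given in the sources used here. Exon structures, loci and sequences were taken from GENCODE 29 (GRCh38), which matched all 34 known models of these genes in exon number and length. Reads of a gene are the sum over its models. The genes and gene lists were chosen with earlier results of these data known.

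Gene reads were compared by exact binomial tests (scipy 1.17.1, Python 3.11.15, pandas 2.3.3), shares and model use by Fisher's exact tests, all two-sided, with Benjamini-Hochberg adjustment over the whole table and a threshold of 0.05. Gene tests needed 10 reads in all, share tests 20 reads in each library, and model tests 10 reads per model. Log2 ratios had 0.5 reads added. Rows with no annotated gene (1.06% and 1.09% of reads) were left out of tests. Intervals of shares are Wilson 95%; a count of 0 allows 3 reads. Intervals and limits cover counting error only. At 1360368 and 1510998 reads, 3 reads are 2.21 and 1.99 CPM. The tests were checked on simulated counts drawn with counting error alone, which cannot show how they behave under other differences between libraries. Models named are the known ones with at least 10 reads and the most read of each other category. Alternatives were edgeR 4.0.16 (TMM) and DESeq2 1.42.0 scaling, subsets of models and other minimums. edgeR's quasi-likelihood test was not used because 1 group gives no comparison.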

Additional observations from a re-analysis of the deposited data

How the results depend on the processing

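Of 55 log2 ratios recomputed under other settings 45 kept their direction and side of the threshold, 5 passed it newly in the same direction, 1 lost it and 4 turned: MYL12B with TMM scaling (-0.023), with known models only (-0.34) and with models of 2 or more exons (-0.12), and MYL12A with known models only (-0.12). With known models only MYL12B was also called, as lower (exact binomial adjusted p = 0.0112; 0.487 to 1 under its other alternatives). The number of the 8 genes called was 3 and became 5 with known models only and 5 with models of 2 or more exons scaled to their own reads, which were chosen after seeing the data; it was 2 with DESeq2 size factors or no minimum, and 4 at a minimum of 100 reads. With known models only MYH9 was not tested, as it had 2 and 0 such reads, and the median of all genes moved to -0.55. Over all genes 537 of 10634 tested were called, and 1681 of 5528 with known models only. Without genomic models it was 827 of 8758. With models of 2 or more exons it was 911 of 7772, and 659 of 7772 when scaled to their reads. DESeq2 size factors gave 533 of 10634, no minimum 462 of 16645 and a minimum of 100 reads 559 of 3879. Of the calls 53.8% were higher, 9.28% with known models only, 26.6% without genomic models, 10.6% with models of 2 or more exons and 30.2% when scaled to their reads. Without genomic models the known share moved from 50.4% to 58.1% and the summed level from 3546 to 3076 CPM, which was 1794 CPM with known models only. Models read in both libraries went from 30.2% to 78.2% at 5 or more reads. Leaving out 1 library each, the known share ran from 46.7% to 54.2%, the summed level from 3397 to 3695 CPM and the suffix share from 72.6% to 76.2%. No paired analysis was possible because both libraries belong to a single group. The cause of these shifts was not tested. At this depth a model with fewer than 3 reads is not told from absence.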
